A study of Mus musculus with 16 samples.

Results

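The regions described here gained H3K27ac from multipotent progenitors (MPP) to common dendritic cell progenitors (CDP) and had lower signal again in both mature types, the classical (cDC) and the plasmacytoid (pDC) dendritic cells. They are 1488 of the 59626 autosomal regions in the authors' list for MPP and CDP, and 27.1% of the 5485 regions gained there. A region was taken when its mean CDP signal was at least 100 and at least 2 times the MPP mean, and when the rows that overlapped it most in the CDP and cDC list and in the CDP and pDC list both had CDP at least 2 times the mature cell type. Every ratio divides 2 group means after 1 was added to each. The ratios of these 3 lists chose the regions, so they are given as a description and are not tested. The cDC and pDC list did not enter the choice as a contrast, but its libraries did.

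Chromatin immunoprecipitation and sequencing measured H3K27ac in the 4 cell types on the C57BL/6 background, with 2 libraries each. No treatment or genetic change is named in the labels. All groups are sorted cells. Whether they came from tissue or from culture, and from how many animals, is not given in the sources used here, and the spread between the libraries of a cell type may be technical. Input (4) and RNA (4) samples are not analysed here, and the cell types were not checked against marker genes.

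H3K27ac is a mark of active promoters and enhancers that acetyltransferases such as p300 and CBP place and histone deacetylases remove. MPP still give rise to many blood lineages. CDP are restricted to dendritic cells, which divide into cDC, specialised in presenting antigen to T cells, and pDC, known for producing type I interferon. The values below are levels in separate populations along the order of differentiation, and no cell was followed over time.

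Each list gives whole-number signals scaled by the authors for each library and separately in each list, so levels are compared within a list, with CDP as the common point. Over the 1488 regions, the libraries of CDP had median signals of 295 and 290 in the MPP and CDP list, against 104.5 and 76.5 in MPP. In the CDP and cDC list the CDP medians were 543.5 and 501, against 83 and 147 in cDC. The CDP medians of the list with pDC were 352 and 346.5, and those of pDC 50 and 64. The rows of the lists with cDC and pDC were often wider, with medians of 1150 and 800 bp against 700 bp for the regions themselves, so CDP levels cannot be compared between lists. As a percentage of the CDP mean of the same region and list, the median library level was 37.8% and 27.2% in MPP, 18.0% and 31.9% in cDC, and 14.2% and 18.1% in pDC.

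**Figure D1:**
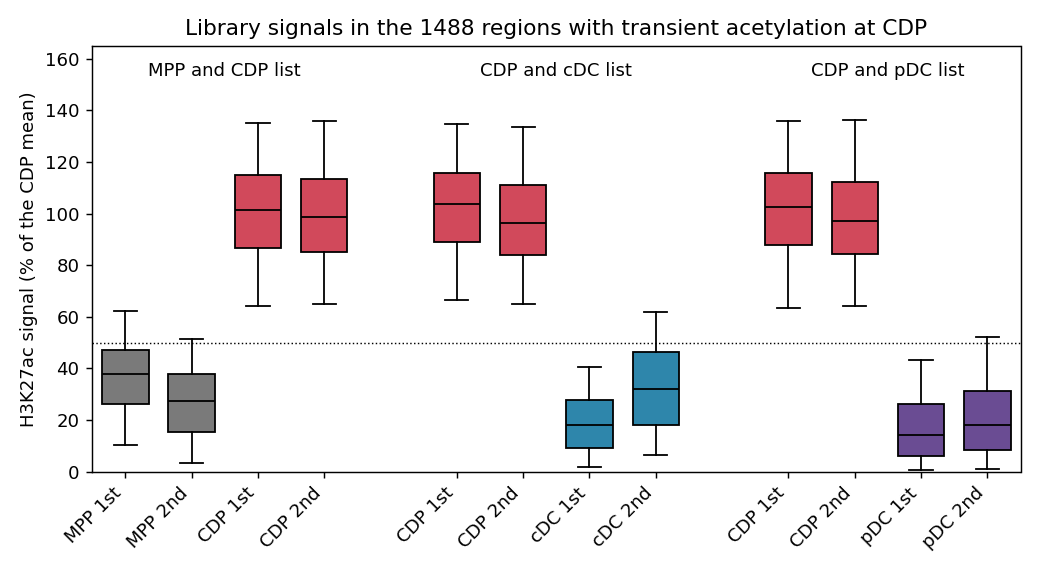
Signal of each library as a percentage of the CDP mean in the same region and list, over the 1488 regions. Boxes span the quartiles with the median as a line, whiskers run from the 5th to the 95th percentile, and the dotted line is the 50% that the rule sets for group means. The 2 cDC libraries differ most within a cell type, with medians of 18.0% and 31.9%.

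The libraries of cDC differed from each other more than those of any other cell type in these regions. The second-listed cDC library was above the first in 86.0% of them, with a median log2 difference of 0.82. The second-listed MPP library was below the first by a median of 0.44, and the second-listed pDC library above the first by 0.32. For CDP the signed difference had a median of 0.10 or less in size in each list, as either library was the higher in many regions. The median SD between the CDP libraries of a region was 0.29 log2, against 0.42 in MPP, 0.63 in cDC and 0.49 in pDC. The count of 1488 was 1226 without the first-listed cDC library and 1830 without the second-listed one, of which 1211 and 1477 were among the regions described here.

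With both libraries of each cell type, CDP stood further above pDC than above cDC in 1014 of the 1488 regions (68.1%), and the ratio to MPP was the smallest of the 3 in 848. The order of pDC and cDC rested on the second-listed cDC library: without it the ratio to pDC was the larger in 738 regions (49.6%), and the median ratios to cDC and pDC were 5.50 and 5.90. CDP exceeded MPP by a median of 2.92-fold, with quartiles of 2.36 and 4.30. It exceeded cDC by a median of 3.90-fold, with quartiles of 2.71 and 6.48, and pDC by a median of 5.90-fold, with quartiles of 3.42 and 12.1. Over all autosomal rows of the 3 lists the median ratios of CDP to the other cell type were 0.92, 1.13 and 0.98. The ratio to pDC was the largest of the 3 in 896 regions. Ratios of at least 8 occurred in 112 regions against MPP, 300 against cDC and 565 against pDC. In 8 regions both pDC libraries were listed at 0, compared with 1 region for MPP and none for cDC. A ratio of at least 2, which the rule sets for every region, was reached by 11.2% of all autosomal rows of the list with MPP, 22.8% of those with cDC and 22.0% of those with pDC.

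Measured against CDP, 848 regions (57.0%) had lower signal in both mature types than in MPP, on the scale of CDP. In 322 regions this held for pDC only and in 112 for cDC only. In the other 206 (13.8%) both mature types kept at least as much of the CDP signal as MPP had. This comparison joins ratios from different lists that share the CDP libraries. The same ratios chose the regions. A ratio of at least 2 is rarer over all autosomal rows against MPP (11.2%) than against cDC (22.8%) or pDC (22.0%), which bears on these counts. The counts were not made for the other gained regions. The share with both mature types below MPP was 55.0% with the autosomal totals of the libraries of a list made equal. It was between 48.8%, without the first-listed MPP library, and 60.8%, without the second-listed cDC library.

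Both CDP libraries lay above both libraries of the other cell type in 1445 regions for MPP, 1468 for cDC and 1471 for pDC, and in 1421 regions (95.5%) for all 3. Over all autosomal rows of the lists, the shares were 26.8%, 36.2% and 38.0%. The rule used these contrasts, so the high shares follow from the choice. The authors' −log10 p was at least 10 in all 3 lists for 1230 of the regions. This p is for the same contrasts, so the count is no support for the regions. The share of all rows past that limit was not counted. With 2 libraries on each side, the smallest two-sided p of an exact permutation test is 0.333.

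Large ratios to all 3 other cell types were found together in few regions. The smallest of the 3 ratios had a median of 2.52. It reached 3 in 442 regions, 4 in 205 and 8 in 32. Among the 260 regions with a mean CDP signal of at least 1000 the median ratios to MPP, cDC and pDC were 2.80, 3.34 and 5.42. Among the 562 regions under 200 they were 2.96, 3.95 and 5.49, so strong and weak regions showed the same order.

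In the region with the largest smallest ratio, little signal was found outside CDP. It lies at chr12:72635951-72637100 (mm9), where the MPP libraries had 8 and 19 and the CDP libraries 546 and 505. Where CDP had 715 and 639 in the list with cDC, the cDC libraries had 5 and 49. Where it had 585 and 525 in the list with pDC, the pDC libraries had 16 and 0. The ratios of CDP to MPP, cDC and pDC were 36.3, 24.2 and 61.8. Neither MPP nor the mature types overlapped CDP there.

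The strongest of the 10 steepest regions was chr19:10855501-10857950, a region of 2450 bp. Its MPP libraries had 179 and 30 and its CDP libraries 2198 and 921. In cDC it had 20 and 61, against 2746 and 1101 in CDP, and in pDC 31 and 2, against 2383 and 969. CDP was 14.8-fold above MPP, 46.4-fold above cDC and 95.8-fold above pDC. The first-listed CDP library was more than 2 times the second here, and even the lower CDP library lay above both libraries of MPP, cDC and pDC.

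At chr8:33287001-33287350 the signals were low throughout, with 9 and 3 in MPP and 158 and 82 in CDP. This 350-bp region was listed at 0 in both pDC libraries, for which no fold is given, and at 1 and 11 in cDC against 225 and 116 in CDP. At chr15:53150951-53152250 the MPP libraries had 67 and 6 and the CDP libraries 739 and 300. There cDC had 12 and 62 against 953 and 362, and pDC 34 and 8 against 782 and 305. The region chr4:125680951-125681800 was the exception among the 10 in having the second-listed CDP library higher, at 381 and 555, where MPP had 52 and 26. In the other 9 the first-listed CDP library was higher, although over all 1488 regions the second was higher in 47.2%.

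**Figure D2:**
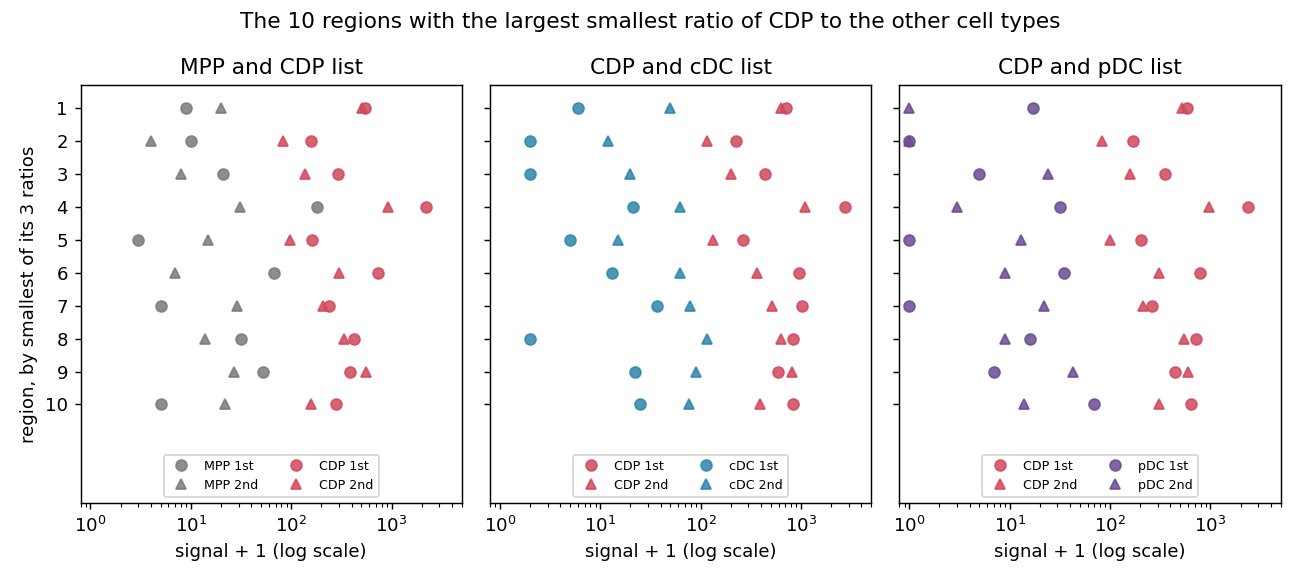
Signal plus 1 (log scale) of every library in the 10 regions with the largest smallest ratio, 1 row per region and 1 panel per list; circles are first-listed and triangles second-listed libraries. The CDP libraries lie to the right of the other cell type in all 10 regions and all 3 panels, and 4 regions have a pDC library at 0, drawn at 1; in region 2 both are.

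The regions with most CDP signal had a substantial level already in MPP and a remainder in cDC. Over all 1488 regions the median ratios were 2.92 to MPP and 3.90 to cDC. Several of the 10 highest had a ratio to cDC below the lower quartile of all regions, 2.71, and the others were above it. The contrast with the steepest regions follows from picking those for large ratios. Among the 10 highest, CDP exceeded MPP by 2.00-fold to 4.10-fold and cDC by 2.03-fold to 4.58-fold, while it exceeded pDC by 2.84-fold to 32.6-fold. The highest was chr12:87296851-87301850, where MPP signals were 4529 and 3633 and CDP signals 11807 and 8762. In the list with cDC, CDP signals were 13128 and 9609 and cDC signals 3208 and 7976, so that the second-listed cDC library came close to the lower CDP library. The pDC signals were 1177 and 1491, with CDP at 12598 and 9627. The CDP libraries lay above those of each other cell type in their list, although the ratio of CDP to cDC, 2.03, was barely above the limit.

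At chr11:86464501-86468100, MPP had 5179 and 4409 and CDP 10843 and 9362. The cDC libraries had 1369 and 4427 where CDP had 13198 and 11146, and the ratio was 4.20. The pDC libraries had 383 and 475 where CDP had 11627 and 9948, and the ratio was 25.1. The largest ratio to pDC among these 10 was at chr8:108527651-108532200, where pDC signals of 191 and 268 stood beside 8214 and 6818 for CDP. That region had MPP signals of 3276 and 3234 beside 7521 and 6344 for CDP, and 1690 and 3057 in cDC against 9317 and 7638. At chr1:186438501-186443000 the ratio to MPP was the largest of the 10, with 1463 and 1352 in MPP and 6829 and 4718 in CDP. The CDP libraries lay above both others in each list at all 10 regions, and the second-listed cDC library was the higher of its pair in each.

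Most of the regions were short. The median width was 700 bp, with quartiles of 400 and 1350 bp and a maximum of 6350 bp, and 480 regions (32.3%) were under 500 bp. Only 8 of the 1488 were single regions of 5 kb or more. The longest, chr5:118853351-118859700, had MPP signals of 2679 and 2034 and CDP signals of 8467 and 6817, and was 2.49-fold lower in cDC and 11.3-fold lower in pDC than in CDP. The cDC row used for it covered 4050 bp. At chr5:32493751-32499300, of 5550 bp, MPP had 1537 and 1293 against 4641 and 2951 in CDP. The cDC libraries had 126 and 589, 13.6-fold below CDP at 6019 and 3756. The pDC libraries had 99 and 181, 30.5-fold below CDP at 5264 and 3333. At chr15:89007251-89013250, of 6000 bp, CDP was 3.29-fold above MPP, but the rows used for cDC and pDC covered 2100 and 2050 bp and held only the part called there.

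Few regions overlapped more than 1 row when followed into another list. The row used had the same bounds as the region in only 35 cases for cDC and 553 for pDC. A wider row also holds signal from outside the region. The row used covered the whole region in 1456 cases for cDC and 1365 for pDC, and more than 1 row overlapped it in 30 and 76 cases. Some neighbouring regions lay in the same wider row, which concerned 108 regions in the CDP and cDC list and 20 in the CDP and pDC list, and these share their mature-cell values. At the limit of the rule, chr12:35976151-35977500 was kept with a smallest ratio of 2.00, from 951 and 1441 in CDP against 442 and 753 in cDC. The region chr3:95998551-95999700 was left out with a ratio of CDP to MPP of 1.998, from 645 and 618 in CDP against 324 and 307 in MPP.

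The other 3997 gained regions had CDP less than 2 times at least 1 mature type. Of these, 495 had CDP at least 2 times cDC but not pDC, 1228 at least 2 times pDC but not cDC, and 2274 neither. In this last class, 1364 were higher in cDC than in CDP and 1480 higher in pDC than in CDP. The list with pDC had no row for 12 regions of this last class and for 2 of the first. The median ratio of CDP to MPP was 2.92 for the regions low in both mature types and 2.90, 2.86 and 2.87 for the other classes in the order given. In the same order, median widths were 700, 700, 900 and 850 bp. Median CDP signals per kb were 409, 406, 442 and 439. These values are descriptive, and no difference between the classes was tested.

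**Figure D3:**
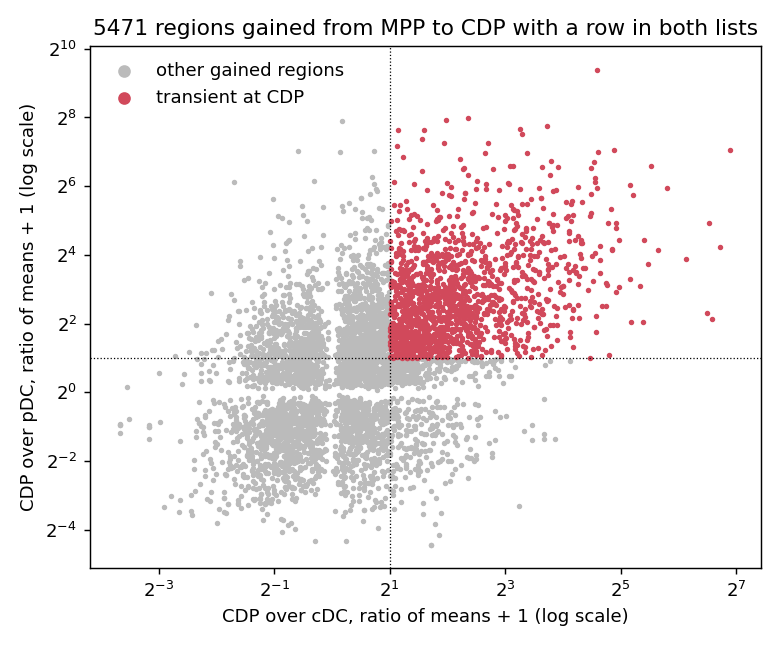
Ratio of CDP to cDC (horizontal) and of CDP to pDC (vertical), both on log scales, for the regions gained from MPP to CDP that have a row in both lists. Dotted lines mark a ratio of 2; the 1488 regions chosen by the rule fill the upper right quadrant by construction, and both axes share the CDP libraries. Only regions called as differing are in the lists.

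Most regions with transient acetylation, 1101 of 1488, had no other within 10 kb, and those with a gained neighbour had one of the same class more often than other gained regions did. Neighbours were counted among the 5485 gained regions, leaving out pairs that were followed into a common row of a second list. Of the neighbours less than 10 kb from a region with transient acetylation, 50.1% belonged to the same class, against 20.3% around the other gained regions. At 10 to 100 kb the shares were 37.8% and 25.6%. The share of the class among all gained regions was 27.1%. A gained neighbour within 10 kb was found for 36.8% of the regions with transient acetylation and 35.5% of the others. Counted once per region, 306 of the 1488 (20.6%) and 347 of the other 3997 (8.68%) had a neighbour of the class within 10 kb. Regions are not independent replicates, and no test was made of these shares.

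**Figure D4:**
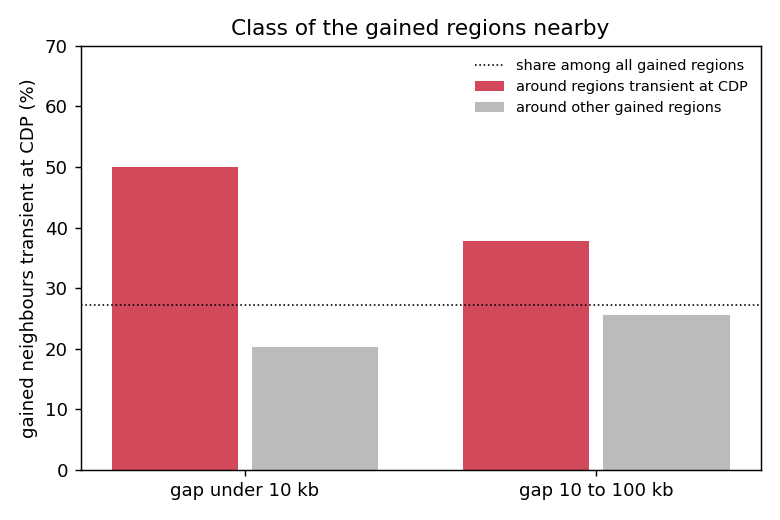
Share of neighbouring gained regions that belong to the class with transient acetylation at CDP, in percent, around regions of that class and around other gained regions, for gaps under 10 kb and of 10 to 100 kb. The dotted line is the share among all gained regions, 27.1%; under 10 kb the bars stand at 50.1% and 20.3%.

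Joining regions less than 10 kb apart gave 1270 stretches, of which 1101 were single regions, 139 held 2 regions and 30 held 3 or more. In all, 387 regions (26.0%) had such company. The stretch with most regions was chr12:87217851-87266950, where 10 regions of 300 to 650 bp were spread over 49.1 kb and made up 10 of the 13 gained regions inside it. Summed over the 10, the MPP libraries had 1017 and 477 and the CDP libraries 2031 and 2051. The sums were 1119 and 1291 in cDC against 3744 and 3777 in CDP, and 736 and 1079 in pDC against 3246 and 3483. The stretch lies at lower coordinates than chr12:87296851-87301850, the region with the highest CDP signal, so the stretch with most regions and the single region with most CDP signal lie near each other on chromosome 12.

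A stretch of wider regions was chr4:134781601-134803850, with 5 regions of 1050 to 2000 bp. Its MPP libraries had 1091 and 1139 against 4778 and 3642 in CDP. In the list with cDC the sums were 6386 and 4589 for CDP and 1181 and 1967 for cDC, and in the list with pDC 5369 and 3958 for CDP and 654 and 997 for pDC. Its 5 regions rest on 3 rows of the CDP and cDC list. At chr7:148159101-148174050, also with 5 regions, the pDC sums were 301 and 329 beside 3189 and 3321 for CDP, and the cDC sums 1259 and 1624 beside 3821 and 3879. At chr6:86647801-86663300 the 6 regions were 300 to 400 bp long, and their sums were 347 and 167 for MPP and 600 and 834 for CDP. Each region summed was chosen for a CDP level at least 2 times that of the other cell types, so the direction of these sums follows from the rule.

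Between the mature types, most of the regions were not called as differing. The cDC and pDC list had a row overlapping 405 of the 1488 regions (27.2%), whereas it had one for 72.1% of all autosomal regions of the MPP and CDP list. For gained regions with CDP at least 2 times cDC only, pDC only or neither, the shares were 90.3%, 90.3% and 98.6%. Low levels in both mature types are part of the rule, which bears on these shares. The 1083 regions with no row there had less signal in CDP, with a median of 196.5 against 1053.5, and were shorter, with a median of 500 bp against 1650 bp. An absent row does not show equal signal.

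Where the list had a row, it covered a median of 35.2% of the region, and 338 of the 405 rows lay inside their region. The other 67 reached beyond it, 21 of them with most of their length outside, and their values include signal from there. In these rows the median signals were 155 and 263 in cDC and 146 and 167 in pDC. Of the 405 regions, 253 had the higher mean in cDC and 152 in pDC. The log2 ratio of pDC to cDC had a median of -0.66, compared with 0.20 over all 64782 autosomal rows of the list. The rows had been called by the authors as differing between these libraries, which conditions every p-value of a further test on them. A limma fit on log2(signal + 1) over all 66319 rows, with Benjamini-Hochberg adjustment, called 85 of the 405 regions (21.0%) higher in cDC and 51 (12.6%) higher in pDC at an adjusted p under 0.05. The same fit called 9.32% of all rows higher in cDC and 23.3% higher in pDC. Of the 51 regions, 28 have a row that reaches beyond them, and for 9 most of the row lies outside, compared with 10 and none of the 85. In 35 of the 51 the pDC mean of that row was above the pDC mean of the row that chose the region, which has other bounds and another scaling. With only the 384 regions that hold at least 50% of their row, a limit chosen after seeing the data, limma called 85 higher in cDC and 42 higher in pDC. At an unadjusted limma p under 0.05 the counts were 122 and 64, and the shares of all rows at that limit were not counted. Both cDC libraries lay above both pDC libraries in 180 of the 405 regions, and both pDC libraries above both cDC libraries in 109, where the shares of all autosomal rows of the list were 26.0% and 42.0%.

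The balance of these calls moved with single libraries and with the scaling. Without the second-listed cDC library, limma called 47 regions higher in cDC and 78 higher in pDC, against 5.70% and 30.1% of all rows, and the median log2 ratio was -0.11. Over all autosomal rows of the list that median was 0.46. Without the first-listed cDC library the medians were -0.99 in the 405 regions and -0.02 over all autosomal rows. Without the first-listed pDC library they were -0.54 and 0.23, and without the second-listed one -0.82 and 0.13. The shares of regions and of all rows that limma called also moved. With equal autosomal totals 189 and 46 regions were called, against 27.7% and 21.4% of all rows, and the median was -1.08. Of the 120 regions covered to at least 50% by their row, 37 were called higher in cDC and 26 higher in pDC.

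**Figure D5:**
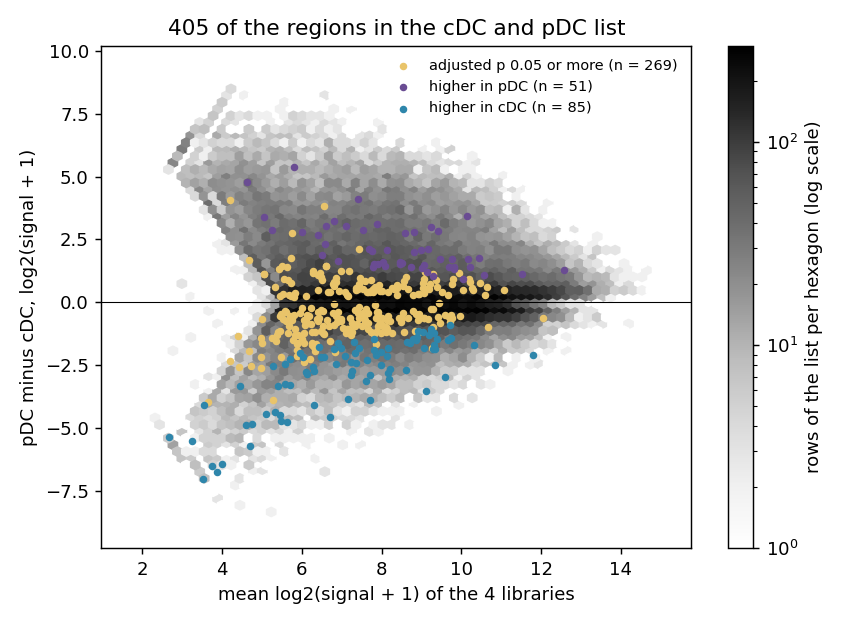
Difference between pDC and cDC against the mean of the 4 libraries, both as log2(signal + 1), for all rows of the cDC and pDC list (grey hexagons, log scale of row number) and for the 405 rows that overlap a region with transient acetylation (points, coloured by the limma call). Of these points 85 were called higher in cDC and 51 higher in pDC.

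Among the regions called higher in cDC, several had rows with almost no pDC signal. A fitted difference against a cell type listed at 0 is set by the value of 1 added to each signal and is no measure of size. At chr1:121429701-121431950, a row of 350 bp had 73 and 228 in cDC and was listed at 0 in both pDC libraries, and limma gave an adjusted p of 0.00236. Its log2 difference of pDC minus cDC was -7.02 as fitted (SE 1.19), -8.02 with 0.5 added and -4.75 with 5 added. Over the wider row used in the list with pDC, the pDC libraries had 25 and 19 and the CDP libraries 2142 and 2068. At chr12:12230251-12231250 the cDC libraries had 79 and 282 and the pDC libraries 1 and 0 over 450 bp, with a limma log2 difference of -6.73 (SE 1.14, adjusted p = 0.00231) that was -4.83 with 5 added. The pDC libraries had 9 and 7 in the row used in the list with pDC. At chr3:57536051-57536650 the signals were 131 and 169 in cDC and 0 and 2 in pDC over 400 bp. In the row used in the list with cDC, CDP had 465 and 438 against 180 and 230 in cDC, and the ratio was 2.20.

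In the opposite direction, the region described next held pDC signal in a part that the row used by the rule did not cover. At chr2:128119801-128123850 the row of the cDC and pDC list, chr2:128119701-128122100, is 2400 bp long and holds 2300 bp of the region. It had pDC signals of 3930 and 3507 and cDC signals of 209 and 568, a limma log2 difference of 3.43 (SE 0.45, adjusted p = 0.000708). The row used in the list with pDC, chr2:128121301-128123900, covers 2550 of the 4050 bp and had CDP signals of 3665 and 2213 and pDC signals of 788 and 795. The CDP libraries had 5655 and 3969 over the whole region. The values of that first part therefore do not show pDC at 0.5 of CDP or less, and the transient pattern against pDC rests on the other part of the region. At chr4:133855501-133857200, a row of 700 bp had pDC signals of 365 and 353 and cDC signals of 0 and 72, a limma log2 difference of 5.40 (SE 1.60, adjusted p = 0.0301). Its size depended on the cDC library, with 2.30 without the first-listed and 8.49 without the second-listed one, and with equal totals limma gave an adjusted p of 0.0642. At chr6:119664501-119666000, 400 bp had pDC signals of 105 and 157 and cDC signals of 1 and 10, while the whole region had 639 and 623 in CDP.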

How the data were processed

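H3K27ac libraries of MPP, CDP, cDC and pDC were compared through 4 lists of regions called as differing between cell types. The series title gives THOR, a differential peak caller, and the submitters' processing notes give BWA 0.6.1 and mm9. The authors' deposited lists hold bounds, the scaled signal of each library and a −log10 p-value whose correction is not given in the sources used here. Read depth is unknown, and with it the counting error. The labels and the protocol name different suppliers of the antibody.

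The order of groups comes from the name of each list. On rows with equal bounds in 2 lists, values of 1 library differed by a near-constant factor (log2 SD up to 0.059 in 10 pairs, and 0.52 or more in the other 86); the place of MPP rests on the name. Values carry no replicate number, hence "first-listed" and "second-listed".

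Ties in overlap went to the lower start. limma 3.58.1 (R 4.3.3) with an intensity trend was fitted to the cDC and pDC list and tested on simulated data. Selection and plots used pandas 2.3.3, numpy 2.4.6 and matplotlib 3.10.9 under Python 3.11.15. Named regions come from the 10 with most CDP signal, the 10 with the largest smallest ratio, the 5 longest, the 5 stretches with most regions, those nearest the limit, and the 5 largest limma-called differences each way; which of these are described was decided after their values were seen. The members and lists were chosen with earlier results of these data known. Coordinates are 1-based. No mm9 sequence or annotation was used here, so no gene is named from a position and no motif was searched.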

Additional observations from a re-analysis of the deposited data

Results flagged for a closer look

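The limma test of pDC against cDC, adjusted over all rows, called 51 of the 405 regions (12.6%) higher in pDC, against 23.3% of all rows. It called 85 (21.0%) higher in cDC, against 9.32% of all rows. The 5 largest differences in each direction are listed here. No CDP value entered this test, so it does not compare the changes from CDP. The authors had already called these rows as differing. Each value is that of the overlapping row in the cDC and pDC list, whose bounds differ from those of the region. The log2(signal + 1) scale sets the size where a library is at or near 0. Higher in pDC, the log2 differences were 5.40 at chr4:133855501-133857200, 4.79 at chr6:119664501-119666000, 4.12 at chr6:115644101-115644750, 3.43 at chr2:128119801-128123850 and 3.41 at chr1:155145951-155148600. Higher in cDC, they were -7.02 at chr1:121429701-121431950, -6.73 at chr12:12230251-12231250, -6.50 at chr1:130620151-130622250, -6.43 at chr3:57536051-57536650 and -5.70 at chr7:31579351-31580150. The limma adjusted p-values of these regions run from 0.000708 to 0.0301. At chr6:115644101-115644750 the row of the cDC and pDC list reaches beyond the region and overlaps 450 of its 650 bp, with 565 and 884 in pDC against 14 and 110 in cDC.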

How the results depend on the processing

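The number of regions, 1488, depended most on the thresholds of the rule: it was 3699 with a ratio of at least 1.5, 442 with a ratio of at least 3, and 926 with a mean CDP signal of at least 200. It stayed within 1.5 times under the other settings tried, from 1226 to 1930 when 1 library was left out. With equal autosomal totals it was 1904, of which 1441 were shared. A similar count can hold other regions. Without the first-listed CDP library, 1186 of the 1930 regions were shared with the 1488, and without the second-listed one 1154 of 1552. The number with both mature types below MPP, 848, ran from 665 to 1113 when 1 library was left out; these alternatives were chosen after seeing the data. The log2 ratio of pDC to cDC, with a median of -0.66, had one of -1.08 with equal totals and ran from -0.99 to -0.11 without 1 library. The limma count higher in cDC, 85, was 189 with equal totals, 37 with an overlap of at least 50%, and 46 to 97 without 1 library, while the count higher in pDC, 51, was 26 with an overlap of at least 50% and 20 to 78 without 1 library. With 1 library left out, the lone library of a cell type is assumed to vary like the others. The cause of these shifts was not tested. The 10 named differences between cDC and pDC kept their direction in all 93 values under the alternatives, 9 of which (rows at least 50% inside the region) were chosen after seeing the data, and 5 of the 93 no longer passed the limma threshold. Values under both limits of overlap come from the main fit and could not change, so they are no support. The 10 regions were picked as the largest called differences in each direction, which favours a kept direction. Their sizes moved under other settings. With 5 added in place of 1, chr1:121429701-121431950 went from -7.02 to -4.75, chr12:12230251-12231250 from -6.73 to -4.83 and chr3:57536051-57536650 from -6.43 to -4.70. The difference at chr4:133855501-133857200, 5.40, was 2.30 or 8.49 without the first-listed or second-listed cDC library. The lost calls belong to chr1:155145951-155148600 without the first-listed cDC library (adjusted p = 0.0506) and without the second-listed pDC library (0.0558), chr4:133855501-133857200 with equal totals (0.0642), and chr7:31579351-31580150 without the first-listed (0.0708) and the second-listed cDC library (0.0846). No paired analysis was possible because the values in the lists carry no replicate number.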

Other observations

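Regions with transient acetylation at CDP were found on every autosome. Of the gained regions of a chromosome, the share with this pattern ran from 20.4% on chromosome 15 (57 of 280) and 21.2% on chromosome 16 (46 of 217) to 32.0% on chromosome 12 (94 of 294) and 32.3% on chromosome 3 (92 of 285). Chromosome 11 held the most, 121 regions. Chromosome 12 holds 6.32% of the regions with transient acetylation and 4.65% of all autosomal regions in the MPP and CDP list.

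The shortest gained regions had the pattern somewhat more often. It was found in 31.8% of the 1510 gained regions under 500 bp, in 26.4% of the 1646 of 500 to under 1000 bp, in 24.3% of the 1670 of 1000 to under 2000 bp, and in 25.3% of the 659 longer ones. In MPP, 394 of the 1488 regions had a mean signal under 50, and 84 under 20. These shares are descriptions with no test.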
